A study of Mus musculus with 6 samples.

Results

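The transcripts described here are those of the nuclear genes for respiratory complex I, taken as every row of the deposited table whose symbol starts with Nduf, then a, b, c, s or v, and then a digit. The pattern took 37 of 24537 rows, and 36 of them were among the 13211 rows with enough signal to be tested. Of the 37, 35 encode subunits of complex I. The other two, Ndufa4 and Ndufa4l2, carry the name without being counted as complex I subunits today, and Ndufa4 belongs to cytochrome c oxidase. The pattern leaves out the assembly factors, whose names start with Ndufaf, and Ndufab1, the mitochondrial acyl carrier protein that is also a subunit. The subunits encoded in mitochondrial DNA had no row in the deposited table under the symbols looked for, so they could not be analysed here.

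Complex I, NADH:ubiquinone oxidoreductase, is the L-shaped entry point of the respiratory chain in the inner mitochondrial membrane. Its peripheral arm in the matrix takes electrons from NADH through a flavin and a chain of iron-sulfur clusters to ubiquinone, and its membrane arm pumps protons. Accessory subunits surround this core and are needed for assembly and stability. Regulatory T cells (Tregs), a CD4 T cell type that holds immune responses in check, are known to lean more on mitochondrial respiration than conventional effector T cells do.

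The RNA came from colon Tregs of mice with colitis induced by the hapten TNBS, in 3 libraries labelled REV-ERB KO and 3 labelled REV-ERB WT. All 6 had the same treatment, 150 µl of 1% TNBS on the skin and 100 µl of 2.5% TNBS into the rectum 7 days later. REV-ERB is a repressing nuclear receptor of the circadian clock, and the comparison addresses what its loss does to Tregs of the inflamed colon. The sources used here do not give the deleted exons, the cells in which the deletion occurs, the age of the mice, the sort or the time of day. Nor do the labels say that the libraries of a group are from separate animals, and p-values reflect only how far these samples spread, which could be technical.

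The libraries held between 12641843 and 15890621 reads in those labelled KO and between 9794474 and 12122569 reads in those labelled WT, so every library labelled KO was deeper. The labels name REV-ERB without saying which gene is meant. Nr1d1, the gene of REV-ERBα, goes against the label if this gene is meant. It had 169, 154 and 141 TPM (reads scaled for transcript length and for library size) in the libraries labelled KO, against 66.3, 104 and 88.2 TPM in those labelled WT. Nr1d2, the gene of REV-ERBβ, overlapped, at 88.6, 65.2 and 52.6 TPM in libraries labelled KO, against 50.4, 70.4 and 62.2 TPM in those labelled WT. Without knowing which exons are deleted, these levels cannot check the genotype. Foxp3, the factor that defines Tregs, was present in every library but at 195, 171 and 235 TPM in those labelled KO, against 451, 664 and 590 TPM in those labelled WT (log2 difference -1.49, adjusted p = 0.0678, limma). No row among the 13211 passed the Benjamini-Hochberg threshold of 0.05, which is 0%, whereas 1030 rows were higher and 1038 lower in libraries labelled KO at an unadjusted p under 0.05.

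As a group, complex I transcripts were higher in the libraries labelled KO, by a small and similar amount in most members. Of the 36 tested, 33 had a log2 difference above 0, against 49.5% of all rows tested, and 3, Ndufb4, Ndufb3 and Ndufb6, had one below 0. The median log2 difference was 0.25 over these 36 and 0.26 over the 35 subunits, against -0.003 over all rows tested. In 18 members every library labelled KO lay above every library labelled WT, a pattern found in 10.6% of all rows, and in 0 members every one lay below, which 10.4% of all rows did. The log2 differences of these 18 spanned 0.16 to 0.68. Members moved together from library to library, WT 2 being the lowest of all 6 for 26 of the 36. Their counts are therefore not counts of independent observations. With median ratio scaling in place of the deposited scale, 11 members were without overlap, against 10.4% of all rows. Epithelial markers were higher in the same libraries (17 of 17 above 0, median 0.89), and with their mean level as a covariate the complex I median was 0.09. That level differed between the groups, so the covariate cannot be separated from genotype.

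No single subunit passed the threshold. At an unadjusted p under 0.05 (limma), 15 members were higher in libraries labelled KO, against 7.8% of all rows, and 0 were lower, against 7.86%. The count of 15 was 7, 7 and 12 without the library labelled KO 1, 2 or 3, and 23, 6 and 7 without the library labelled WT 1, 2 or 3. The share of all rows moved as well, to 5.77, 4.15 and 10.4% without KO 1, 2 or 3, and to 9.56, 3.97 and 5.88% without WT 1, 2 or 3. With 3 libraries a group, the exact two-sided permutation test has a smallest possible p of 0.1, which it gave for each of the 18 members whose groups did not overlap.

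**Figure D1:**
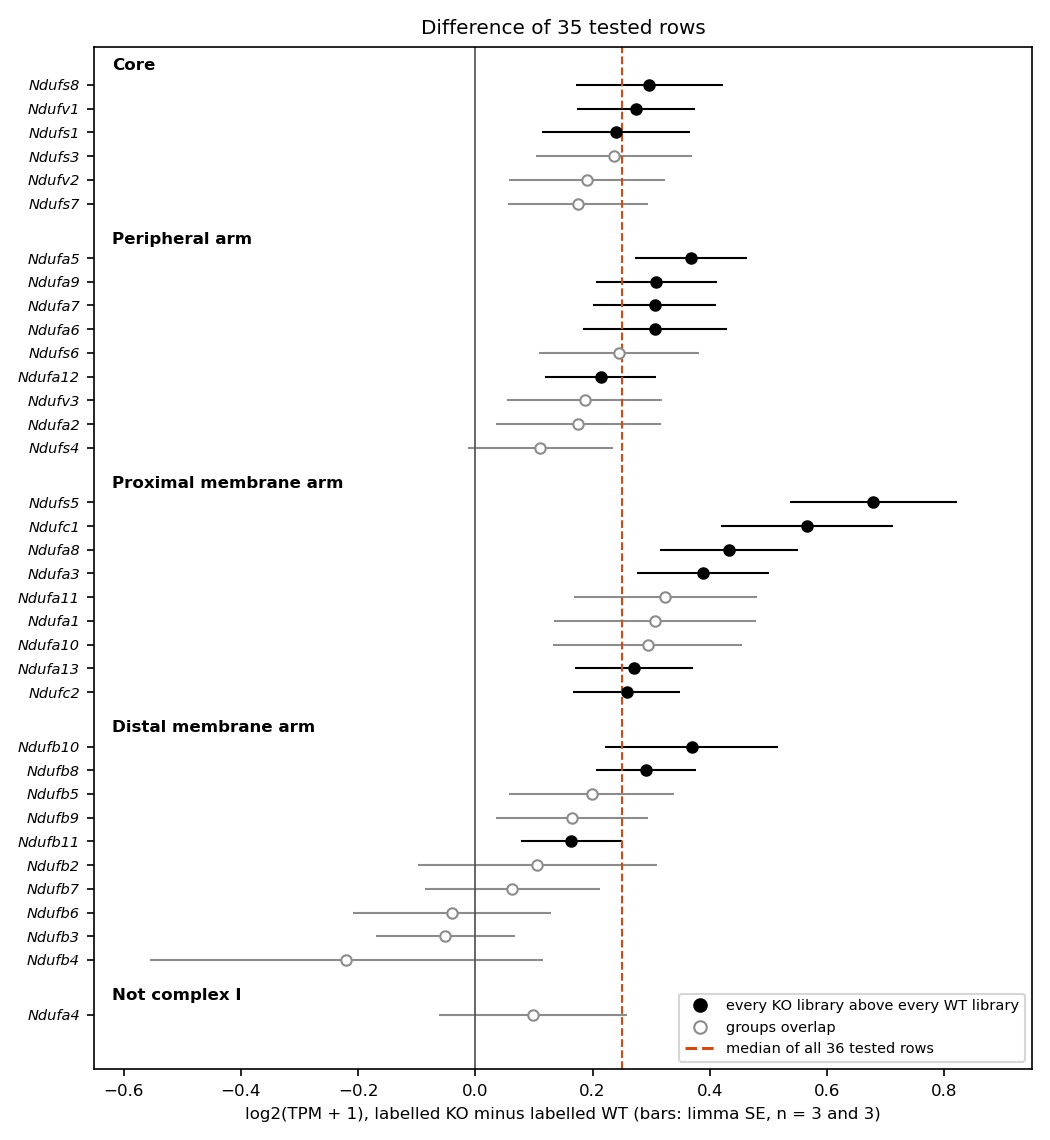
Log2 difference in log2(TPM + 1), labelled KO minus labelled WT, for 35 of the 36 tested members, ordered by place in the complex. Bars are the limma standard error, and filled points mark the 17 of them in which every library labelled KO lay above every library labelled WT. The 9 proximal membrane arm subunits lie at 0.26 or above, and the 3 members below 0 are all in the distal membrane arm.

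These are abundant, short transcripts. The median member stood at 92.8 TPM over the 6 libraries, against 16.4 TPM for all rows tested, and was 649 bases long, against 2627 bases. In mean TPM, 16 members were at 100 or more, 15 between 50 and 100, and 5 below 50. Together the tested members made up 0.587 to 0.638% of the table's TPM in libraries labelled KO and 0.470 to 0.587% in those labelled WT. Apart from Ndufb4, which had as few as 13 reads, every tested member had at least 68 reads in each library.

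Ndufa6 (chr15:82350139-82354291, minus strand, mm10), an accessory subunit of the peripheral arm that holds the acyl carrier protein, was the highest member. It stood at 256, 269 and 220.1 TPM in libraries labelled KO, against 218, 176 and 209 TPM in those labelled WT (log2 difference 0.31 ± 0.12 SE, adjusted p = 0.294). The lowest library labelled KO lay just above the highest labelled WT. Its next neighbours in level, Ndufa4 at 190.4 ± 4.51 TPM and Ndufb9 at 196 ± 23.9 TPM (SD, n = 3 libraries labelled KO), did not differ beyond their spread.

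**Figure D2:**
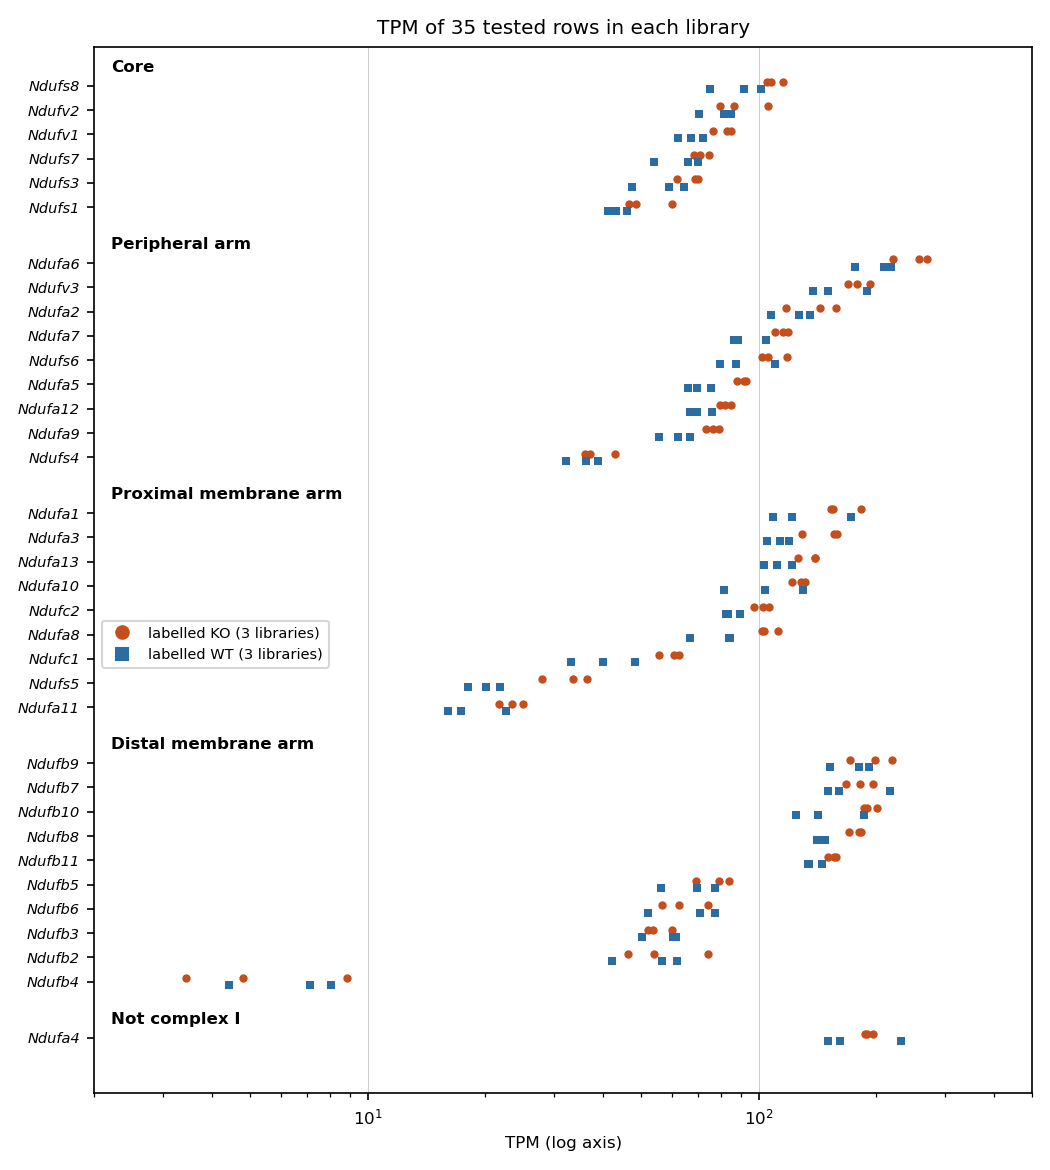
TPM of 35 of the 36 tested members in each library on a log axis, grouped by place in the complex and sorted by mean level. Circles are the 3 libraries labelled KO and squares the 3 labelled WT. Most members lie between 50 and 250 TPM, with Ndufb4 far below the rest, and the squares that reach into the circles are often a single library.

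The 7 core subunits of the peripheral arm, which carry out the electron transfer, were all above 0, with a median log2 difference of 0.24 and a range of 0.18 to 0.30. Every library labelled KO was above every library labelled WT in 4 of the 7, against 10.6% of all rows. Ndufv1, which binds NADH and the flavin, had 82.8, 76.3 and 84.9 TPM in libraries labelled KO, against 72.0, 62.2 and 67.1 TPM in those labelled WT, without overlap (log2 0.27 ± 0.10 SE, adjusted p = 0.267).

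Ndufs8, an iron-sulfur protein close to the membrane, had 108, 115 and 105 TPM in libraries labelled KO, against 101, 75.1 and 92.0 TPM in those labelled WT (log2 0.30 ± 0.13 SE, adjusted p = 0.312). Ndufs1, the largest subunit and a carrier of iron-sulfur clusters, had 48.4, 60.05 and 46.5 TPM in libraries labelled KO, against 45.9, 43.0 and 41.2 TPM in those labelled WT (log2 0.24 ± 0.13 SE, adjusted p = 0.395). Neither overlapped, but in each the lowest library labelled KO was only a few percent above WT 1.

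The core subunits Ndufs3, Ndufs7 and Ndufv2 overlapped between the groups. Ndufs3, a scaffold of the arm without a cofactor, had 68.7, 61.8 and 70.0 TPM in libraries labelled KO, against 64.4, 47.4 and 59.0 TPM in those labelled WT (log2 0.24, exact permutation p = 0.2). Ndufs7, which holds the last iron-sulfur cluster before ubiquinone, had 68.3, 74.6 and 70.7 TPM in libraries labelled KO, against 69.9, 54.1 and 65.8 TPM in those labelled WT (log2 0.18, exact permutation p = 0.2). In both, only WT 1 reached the libraries labelled KO. Ndufv2, the iron-sulfur partner of Ndufv1, had 79.5, 86.7 and 105 TPM in libraries labelled KO, against 81.5, 84.8 and 70.4 TPM in those labelled WT. Its difference rested mostly on the high value of KO 3 (log2 0.19, exact permutation p = 0.4).

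Among the 9 accessory subunits of the peripheral arm, all 9 were above 0, with a median of 0.25 and a range of 0.11 to 0.37. In this arm 5 did not overlap, against 10.6% of all rows with every library labelled KO above. Ndufa5 (chr6:24518666-24527687, minus strand), which sits on the matrix side of this arm, had 87.9, 93.0 and 91.8 TPM in libraries labelled KO, against 75.6, 69.4 and 66.0 TPM in those labelled WT. Each group was tight and the gap between them was wider than either (log2 0.37 ± 0.10 SE, adjusted p = 0.176). Ndufa9, a nucleotide-binding subunit at the junction of the arms, had 73.4, 79.2 and 76.2 TPM in libraries labelled KO, against 66.8, 55.7 and 62.1 TPM in those labelled WT (log2 0.31 ± 0.10 SE, adjusted p = 0.236). Ndufa7 had 119, 116 and 110.2 TPM in libraries labelled KO, against 104, 86.4 and 88.3 TPM in those labelled WT (log2 0.31 ± 0.10 SE, adjusted p = 0.241). The smallest difference of this arm was that of Ndufs4, at 0.11, a subunit whose loss causes a Leigh-like encephalopathy in mice.

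The 9 accessory subunits of the proximal membrane arm, the part next to the peripheral arm, had the highest median of the 4 places, 0.32, with a range of 0.26 to 0.68. All 9 were above 0 and 6 did not overlap, against 49.5% and 10.6% of all rows. Ndufs5 (chr4:123712710-123718186, minus strand, mm10), a small protein on the intermembrane space side, had the smallest p of all members. It stood at 27.9, 33.6 and 36.5 TPM in libraries labelled KO, against 21.8, 20.01 and 18 TPM in those labelled WT, or 32.65 ± 4.35 against 19.95 ± 1.93 TPM (SD, n = 3 each). The groups were well apart (log2 0.68 ± 0.14 SE, adjusted p = 0.132, limma).

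Ndufs5 is 99.4% identical to the pseudogene BC002163 over the stretch that aligns, so the split of reads between the rows is uncertain. BC002163 had 55.7, 67.9 and 68.5 TPM in libraries labelled KO, against 53.7, 48.3 and 50.6 TPM in those labelled WT (log2 0.32, adjusted p = 0.258). The sum of both rows gave a log2 difference of 0.44, again without overlap. A near-identical pseudogene was also found for Ndufa12, Ndufb11, Ndufs3 and Ndufs6, 5 of the 37 members in all.

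Ndufc1 (chr3:51405479-51408955, minus strand), a small membrane subunit, had 55.6, 62.6 and 60.9 TPM in libraries labelled KO, against 48.3, 39.9 and 33.0 TPM in those labelled WT (log2 0.57 ± 0.15 SE, adjusted p = 0.181). Its partner Ndufc2 had 102, 106 and 97.2 TPM in libraries labelled KO, against 89.6, 82.4 and 83.3 TPM in those labelled WT (log2 0.26 ± 0.09 SE, adjusted p = 0.251). Neither overlapped, and the difference of Ndufc1 was the second highest of the 36. Ndufa8, like Ndufs5 an intermembrane space protein held by disulfides, had 102, 103 and 112 TPM in libraries labelled KO, against 84.3, 66.8 and 84.1 TPM in those labelled WT (log2 0.43 ± 0.12 SE, adjusted p = 0.194). Ndufa3, a single-span membrane subunit, had 129, 156 and 159 TPM in libraries labelled KO, against 119, 105 and 114 TPM in those labelled WT (log2 0.39 ± 0.11 SE, adjusted p = 0.206). In both genes all 3 libraries labelled KO were higher.

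The 10 accessory subunits of the distal membrane arm, all named Ndufb, spread most widely, at a median of 0.14 and a range of -0.22 to 0.37. Of the 10, 7 were above 0 and 3 did not overlap, against 49.5% and 10.6% of all rows. Ndufb8 had the smallest p of these, with 181, 183 and 170.4 TPM in libraries labelled KO, against 147, 147 and 141 TPM in those labelled WT (log2 0.29 ± 0.09 SE, adjusted p = 0.209). Ndufb10 had the largest difference, 0.37, but its libraries labelled KO reached down to 186.3 TPM, against 185.7 TPM in WT 1.

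The members below 0 belong to this arm and overlapped throughout. Ndufb4 (chr16:37647602-37654368, minus strand) had only 3.42, 4.80 and 8.87 TPM in libraries labelled KO, against 4.43, 8.06 and 7.13 TPM in those labelled WT, on 13, 20 and 42 reads against 13, 28 and 24 reads (log2 -0.22, exact permutation p = 0.7). Ndufb3 had 52.2, 59.999 and 53.6 TPM in libraries labelled KO, against 61.6, 50.3 and 60.3 TPM in those labelled WT (log2 -0.05, exact permutation p = 0.8). Ndufb6 had 56.7, 62.5 and 74.0 TPM in libraries labelled KO, against 77.5, 52.1 and 70.7 TPM in those labelled WT (log2 -0.04, exact permutation p = 0.9). None of these differences exceeded the spread within a group, and the sign of Ndufb4 and Ndufb6 turned without KO 1, to 0.04 and 0.05.

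Within each library, the mean log2 level of the proximal arm minus that of the distal arm was 0.02, -0.02 and -0.02 in those labelled KO, against -0.21, -0.29 and -0.37 in those labelled WT. The contrast was chosen after the values were seen and has no test. Without Ndufs5, which has the near-identical copy, and the weakly expressed Ndufb4, it was -0.26, -0.29 and -0.22 in libraries labelled KO, against -0.44, -0.43 and -0.53 in those labelled WT.

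Ndufa4 had 187, 195 and 189 TPM in libraries labelled KO, against 232, 150.04 and 162 TPM in those labelled WT (log2 0.10, exact permutation p = 0.7). The libraries labelled KO lay between WT 1 and the others. Ndufa4l2, a paralogue known as a target of the hypoxia response, was near the limit of detection, with 8, 1 and 6 reads in libraries labelled KO, against 1, 0 and 2 reads in those labelled WT, and was not tested.

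The promoters of 32 members were in the RefSeq promoter table (GRCm38.p6, 250 bases before to 50 after each start), and both strands were searched for the letters of 5 motifs. AAGATGGC, a core of the YY1 motif, was in 7 of the 32 (21.9%), against 2.88% of 27025 promoters. All 7 lay on the gene's own strand, 22 to 38 bases after the start, and the ATG within each is an annotated start codon (GENCODE M21). On that strand after the start, 0.958% of all promoters held it. The 7 stretches of 30 bases are shown because the same letters recur near the same place in genes of both arms. Capitals mark the motif, and each reads 5′ to 3′ on the gene's strand.
Ndufa3 (chr7:3617384-3617413, plus strand): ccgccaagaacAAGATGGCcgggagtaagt
Ndufc1 (chr3:51408915-51408944, minus strand): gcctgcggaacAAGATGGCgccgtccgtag
Ndufb8 (chr19:44555393-44555422, minus strand): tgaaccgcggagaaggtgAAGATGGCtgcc
Ndufa9 (chr6:126849097-126849126, minus strand): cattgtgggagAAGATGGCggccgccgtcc
Ndufs6 (chr13:73328433-73328462, minus strand): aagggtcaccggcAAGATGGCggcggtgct
Ndufs7 (chr10:80249462-80249491, plus strand): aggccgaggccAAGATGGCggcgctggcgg
Ndufs4 (chr13:114388045-114388074, minus strand): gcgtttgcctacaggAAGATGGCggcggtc
The first 4 of these genes did not overlap between the groups, with log2 differences of 0.39, 0.57, 0.29 and 0.31. Ndufs6, Ndufs7 and Ndufs4 overlapped, at 0.25, 0.18 and 0.11. That is 4 of 7 without overlap, against 18 of all 36 tested members and 10.6% of all rows. Whether the motif goes with the difference was not tested.

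AGGTCA, the half-site that REV-ERB and ROR receptors bind, was in 6 of the 32 promoters (18.8%), a share close to the 16.0% of all promoters. The 6 genes were Ndufs5, Ndufb10, Ndufs8, Ndufa11, Ndufb2 and Ndufb4, whose log2 differences ran across the whole range of the members. Their stretches are shown because the libraries are compared by a receptor that binds this half-site, given in capitals as AGGTCA or its reverse complement TGACCT. The match is of letters only, and binding at these places was not tested.
Ndufs5 (chr4:123718397-123718426, minus strand): ctttctcgagtgTGACCTtgctcaagtagc
Ndufb10 (chr17:24724568-24724597, minus strand): atcttagctggtAGGTCAgggcaaagcatt
Ndufs8 (chr19:3912981-3913010, minus strand): cgtcccaaaccgAGGTCAggaagtcccgcc
Ndufa11 (chr17:56717761-56717790, plus strand): cctcgcgagagtTGACCTagccggctaccc
Ndufb2 (chr6:39592373-39592402, plus strand): ggagcagcagtaAGGTCAgccaagagcacc
Ndufb4 (chr16:37654405-37654434, minus strand): tcctgagcctgaAGGTCAgactcgagaggg
TCAAGGTCA, the longer element of the ERR receptors that contains this half-site, was in 0 of the 32, against 0.407% of all promoters. GCGCATGC, a core of the NRF1 motif that can overlap itself on the other strand, was in 3 (9.4%), Ndufa6, Ndufa8 and Ndufa11, against 2.8%. CCGGAAGT, the ETS motif that GABPA binds, was in 1 (3.1%), Ndufs3, against 4.0%.

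**Figure D3:**
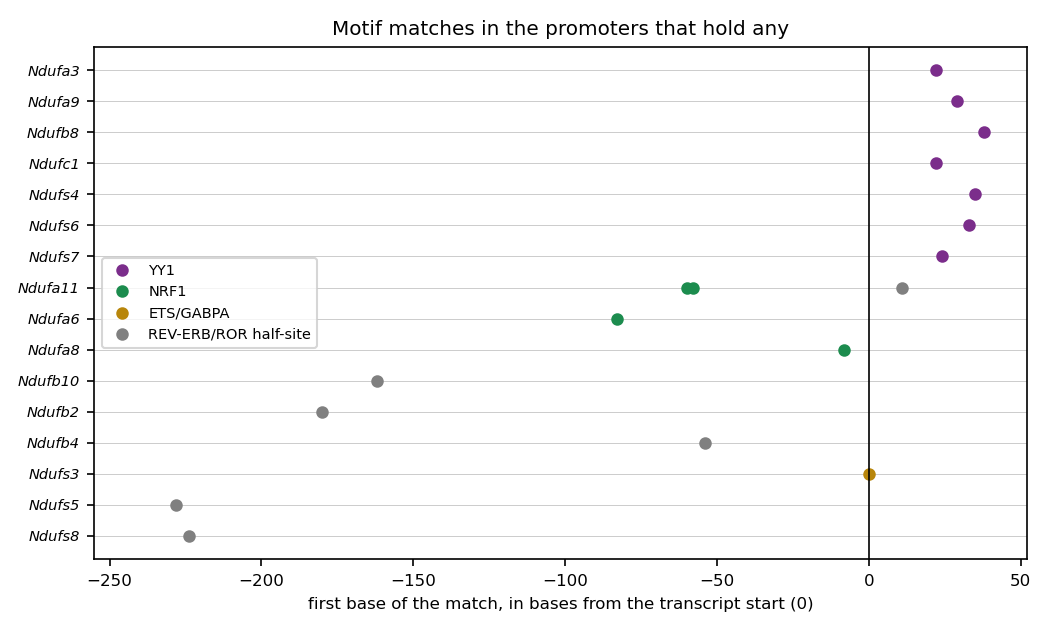
Positions of the motif matches in the promoters of the members, as distance in bases from the transcription start on the horizontal axis. Each row is a gene with a match and each colour a motif. The YY1 letters stand in a narrow band 22 to 38 bases after the start in 7 genes, while the AGGTCA half-sites are scattered.

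The 6 libraries differed in complex I level within their groups as well. The summed TPM of the 37 rows was 3785, 4103 and 3886 in libraries labelled KO and 3774, 2982 and 3239 in those labelled WT, or 3925 ± 162 against 3332 ± 404 (SD, n = 3 each). WT 1 came close to KO 1, and WT 2 was lowest. WT 1 was the highest of the libraries labelled WT for 32 of 36 members, and WT 2 was the lowest of all 6 libraries for 26. WT 1 reached the lowest library labelled KO in 18 members, and in 9 of them it alone did. The median coefficient of variation of a member was 6.7% among libraries labelled KO and 12.2% among those labelled WT.

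The other complexes of the chain showed the same direction. All 4 subunits of complex II were above 0, at a median of 0.34, and none of the 4 overlapped. All 9 subunits of complex III were above 0 (median 0.33, 6 without overlap), led by Cyc1, cytochrome c1, at 163 ± 12.7 TPM in libraries labelled KO, against 106 ± 18.1 TPM in those labelled WT. All 11 of complex IV (median 0.30, 4 without overlap) and all 14 of ATP synthase (median 0.32, 8 without overlap) were above 0 as well. Among all rows tested, 49.5% were above 0 and 10.6% were without overlap in this direction. Complex I, at 0.25, had the lowest median of these complexes, and the difference between complexes was not tested.

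The genes that build or regulate complex I were split in direction, as were all rows tested. Of 15 assembly factors, 9 were above 0 and 6 below, with a median of 0.12 and 1 factor without overlap in each direction. Over all rows tested, 49.5% were above 0, 10.6% were without overlap above and 10.4% without overlap below. Ecsit, an assembly factor that also acts in Toll-like receptor signalling, averaged 23.5 ± 3.20 TPM in libraries labelled KO, against 17.6 ± 1.63 TPM in those labelled WT (adjusted p = 0.266). Tmem126b, which takes part in building the membrane arm, averaged 13.9 ± 0.446 TPM in libraries labelled KO, against 17.9 ± 3.02 TPM in those labelled WT (adjusted p = 0.36). Ndufab1 overlapped, at 27.1, 28.7 and 33.3 TPM in libraries labelled KO, against 29.7, 24.9 and 22.5 TPM in those labelled WT. Of 12 regulators of mitochondrial biogenesis, 6 were above 0 and 6 below (median 0.04), against 49.5% of all rows above 0. Esrra, which encodes the receptor ERRα, had the smallest p of these, at 30.3 ± 6.31 TPM in libraries labelled KO, against 20.8 ± 1.16 TPM in those labelled WT (log2 0.51, adjusted p = 0.226).

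Levels of epithelial markers were also higher in the libraries labelled KO. In bulk samples, fewer cells of a type and less RNA per cell cannot be told apart. All 17 epithelial markers were above 0 (median 0.89, 11 without overlap, 0 of 17 listed at 0 in any library). Among all rows tested, 49.5% were above 0 and 10.6% were without overlap above. Their summed level was 3347 to 6631 TPM in libraries labelled KO, against 2312 to 3319 TPM in those labelled WT. Epcam, an adhesion protein of epithelial cells, had 207, 285 and 179 TPM in libraries labelled KO, against 171, 92.2 and 140.02 TPM in those labelled WT. Krt8, a keratin of simple epithelia, had 641, 1037 and 474 TPM in libraries labelled KO, against 413, 277 and 345 TPM in those labelled WT. Tff3, a secreted goblet cell peptide, had 139, 179.99 and 77.0 TPM in libraries labelled KO, against 56.7, 43.4 and 67.7 TPM in those labelled WT.

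Averaged over the 17 epithelial markers, the log2 level was 7.23, 7.81 and 6.84 in libraries labelled KO and 6.81, 6.08 and 6.45 in those labelled WT. That of complex I was 6.30, 6.40 and 6.38 in libraries labelled KO and 6.27, 5.98 and 6.1 in those labelled WT. KO 2 was highest and WT 2 lowest in both. KO 1 lay above KO 3 in epithelial level but below it in complex I, and KO 3 was close to WT 1 in epithelial level but above it in complex I. With the epithelial mean as a covariate, 25 of 36 members were above 0, against 53.4% of all rows. Of 9 Treg markers, 2 (Tnfrsf18 and Ikzf4) were above 0 and 7 below. Among those below, 4 (Foxp3, Icos, Il10 and Ctla4) were without overlap, against 10.4% of all rows. The summed level given next is that of the 9 Treg markers. Their summed level was 4404 to 5009 TPM in libraries labelled KO, against 5869 to 7184 TPM in those labelled WT. Malat1 and Neat1, RNAs kept in the nucleus, averaged 288 and 173 TPM in libraries labelled KO, against 546 and 344 TPM in those labelled WT (adjusted p = 0.085 and 0.119). The epithelial mean itself differed between the groups, so as a covariate it cannot be separated from genotype with 3 libraries a group. The part of epithelial RNA, Treg share, nuclear RNA and depth in the complex I difference was not tested.

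**Figure D4:**
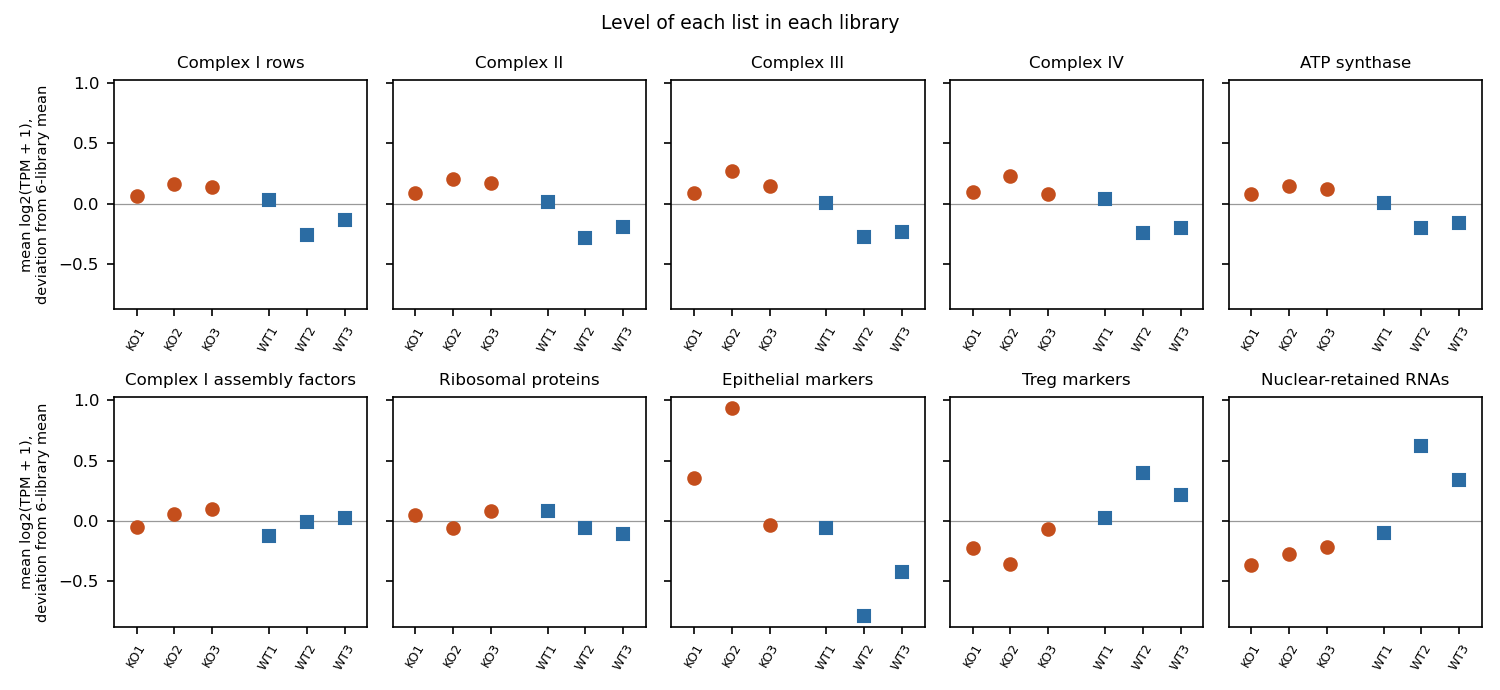
Mean log2(TPM + 1) of each gene list in each of the 6 libraries, as the deviation from the mean over the libraries. Points labelled KO stand before points labelled WT. The complexes of the chain and the epithelial markers are lowest in WT 2, and the Treg markers are highest there.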

How the data were processed

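RNA-seq of 6 mouse libraries was analysed, 3 labelled KO and 3 labelled WT, grouped by the genotype in the labels. The authors deposited TPM values in 1 table whose rows are RefSeq transcripts, per the file headers. Per the labels' protocols, 1.3 µg of total RNA entered a stranded mRNA kit. The submitters' processing notes list the build mm10 and the tools STAR 2.5.3a, HOMER 4.9.1, Trim Galore 0.4.4 and FastQC 0.11.8, with no order or settings. The sources used here do not say whether counting used strand, and 7 members overlap another row (Ndufa1, Ndufa10, Ndufa13, Ndufa2, Ndufa4l2, Ndufs1 and Ndufs7). The TPM columns sum to between 634200 and 644662. TPM times transcript length, divided by a fixed step per library, lay within 0.1 of a whole number for 99.98 to 99.99% of values up to 500 reads, and rounding gave the read numbers.

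Rows with at least 1 TPM in at least 3 of 6 libraries were tested with limma 3.58.1 (R 4.3.3) on log2(TPM + 1) with a variance trend, genotype being the only term, over the whole table, with Benjamini-Hochberg adjustment at 0.05. Fold changes on this scale understate low genes. The code was tested on simulated data. Near-identical copies, at 95% identity over 50% of a transcript, were found with BLAST 2.17.0. Python 3.11.15 and matplotlib 3.10.9 were used. Named members are the core subunits, the 10 with the smallest p, the highest and the lowest in level, all below 0, and both rows that are not subunits, with up to 2 genes per other list and Epcam, Krt8 and Tff3 of the epithelial list. The values of 1 member and of 1 marker are not reported here, though they are in the counts. The remaining genes in the text were picked with their values in view. The members and lists were chosen with earlier results of these data known. Alternatives were other pseudocounts, filters, scalings, models, covariates and left-out libraries.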

Additional observations from a re-analysis of the deposited data

How the results depend on the processing

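The direction of the complex I median held in every alternative run, including each left-out library (0.195 to 0.322). When a library was left out, 30 to 35 members stayed above 0, against 47.3 to 51.8% of all rows. Counts of calls moved more. Members higher at an unadjusted p under 0.05 numbered 15, and 6 to 23 without 1 library, 8 without the variance trend (7.3% of all rows), and 1 with the epithelial covariate (2.11% of all rows), under which 1 was lower and the median was 0.087. Members without overlap above numbered 11 with median ratio scaling (10.4% of all rows), against 18 on the deposited scale (10.6% of all rows). When WT 2 was left out, 1 member lay wholly below (0 to 1 over left-out libraries). The share of all rows wholly below was not counted for that run. With array weights, 582 of all 13211 rows and 3 of the 36 members (Ndufs5, Ndufc1 and Ndufa5) passed the threshold. The share of all rows higher at an unadjusted p under 0.05 (limma) was then 12.7%, against 7.8% without weights. The weights ran between 0.427 for KO 3 and 2.1 for WT 3, and the cause was not tested. Without 1 library, 0 to 14 of all rows passed, the 14 being without WT 1. The assembly factor median of 0.117 was 0.026 with array weights, 0.031 with the length trend removed, and -0.039 to 0.181 without 1 library, the lowest without WT 1.

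The labels do not say that replicate numbers pair the libraries. With each group centred on its own mean, same-numbered libraries correlated at 0.004, -0.219 and -0.041. With 3 libraries a group, these values cannot exclude a shared litter or day. With the replicate block, 12 members were higher at an unadjusted p under 0.05 (limma), against 6.5% of all rows. With it, 0 members passed the threshold and the median was 0.251.

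Of 1238 values for 69 named genes, 1190 were unchanged, 25 turned sign, 18 newly passed the threshold and 5 moved. Unchanged means the same direction and side of the threshold. With the length trend removed, which has no test, it means the same direction and within the gene's spread. Without 1 library, the log2 difference ran between -0.541 and 0.038 for Ndufb4 (above 0 without KO 1), between -0.206 and 0.076 for Ndufb6 (above 0 without KO 1, WT 1 or WT 3) and between -0.142 and 0.001 for Ndufb3 (above 0 without WT 1). It ran between -0.081 and 0.254 for Ndufb2 (below 0 without KO 2 or WT 2), between -0.041 and 0.223 for Ndufb7 and between -0.023 and 0.288 for Ndufa4 (both below 0 without WT 2). For Nr1d2 it ran between -0.044 and 0.325 (below 0 without KO 1). With voom Ndufb6 was at 0.027, and with the length trend removed Ndufa4 was at -0.006 and Ndufb7 at -0.04. The 5 that moved were all members with the length trend removed: Ndufa5 (0.265), Ndufa12 (0.111), Ndufb8 (0.193), Ndufb11 (0.08) and Ndufc2 (0.162). In that run the median was 0.208 for the core, 0.141 for the peripheral, 0.288 for the proximal and 0.034 for the distal subunits. With the epithelial covariate those that turned were Cd14 (-0.627), Ndufb2 (-0.498), Ndufb7 (-0.226), Ndufa4 (-0.188), Ndufb9 (-0.162), Ndufa1 (-0.104), Cd68 (-0.103), Ndufs6 (-0.044), Ndufs7 (-0.024), Ndufa10 (-0.006), Ndufs1 (-0.005) and Ndufb4 (0.452). Depth limits Ndufb4 and Ndufa4l2 most, and with 3 libraries a group small differences cannot be told from the spread.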

Other observations

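Electrons can also reach ubiquinone without complex I. Of 8 genes for such routes and for NADH handling, all 8 were above 0, at a median of 0.25, and 3 did not overlap. Among all rows tested, 49.5% were above 0 and 10.6% were without overlap above. Prodh, proline dehydrogenase, had 3.76, 5.04 and 4.52 TPM in libraries labelled KO, against 1.75, 1.60 and 1.18 TPM in those labelled WT (log2 1.12, adjusted p = 0.13, limma). Gpd2, the mitochondrial glycerol-3-phosphate dehydrogenase, had 16.3, 17.6 and 12.1 TPM in libraries labelled KO, against 10.8, 9.28 and 10.2 TPM in those labelled WT (log2 0.54, adjusted p = 0.231). Of 75 cytosolic ribosomal protein genes, 55 were above 0, with a median of 0.14 and 9 without overlap above and 3 below, against 10.6% and 10.4% of all rows.

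Of the markers of other cells, 7 of 8 for macrophages, 4 of 5 for neutrophils, 8 of 8 for fibroblasts and smooth muscle, 2 of 5 for B cells and 1 of 6 for T cells were above 0. The share of all rows above 0 was 49.5%. Of the 6 T cell markers, 3 (Cd3d, Cd3g and Cd4) were without overlap below, against 10.4% of all rows. Without overlap above were 0 of 8 for macrophages, 1 of 5 for neutrophils, and 1 of 8 for fibroblasts and smooth muscle. The share of all rows without overlap above was 10.6%. S100a8, an abundant neutrophil protein, was listed at 0 in every library labelled WT and had 4, 20 and 35 reads in those labelled KO.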
